A study of Mus musculus with 17 samples.

Results

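Kinesins are the motor proteins that walk along or dismantle microtubules, and their genes were followed here across 17 arrays of sorted mouse bone marrow cells. Members were all genes whose symbol in the array annotation starts with Kif and a digit, or is Kifc1, Kifc2 or Kifc3, on probe sets that carry a single symbol. This gave 40 genes of 18193, on 103 probe sets. Of the 40 genes, 12 were classed as mitotic, 15 as carriers of cargo or organelles, and 13 as other or little known. Kif2a and Kif2b, relatives of the mitotic Kif2c, were placed with the other kinesins. A gene was tested when a probe set reached the 40th percentile of its array on at least 3 arrays, which left 32 kinesin genes among 14245 genes, each represented by its brightest such probe set. The tested members were 10 mitotic, 14 transport and 8 other kinesins. All 10 mitotic kinesins tested were at or above that percentile on all 17 arrays, as were 23 of the 32 in all. Kif14, Kif15, Kif5c, Kif21a, Kif26a, Kif27, Kif28 and Kif2b reached it on 2 arrays or fewer and were not tested.

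The study profiled marrow of mice in which Pig-a had been knocked out. The Pig-a product starts the glycosylphosphatidylinositol (GPI) anchor that holds many proteins on the cell surface, so that cells without it lack these proteins. Batch 1 compared both sorted fractions of Pig-a knock-out marrow, GPI-negative and GPI-positive, on 3 arrays each. Batch 2 had 3 groups. Knock-out graft cells (4 arrays) were the GPI-negative fraction of C57BL/6 mice transplanted with enriched knock-out marrow. Wild-type graft cells (3 arrays) were the GPI-positive fraction of C57BL/6 mice transplanted with wild-type marrow, and wild-type cells (4 arrays) were the GPI-positive fraction of C57BL/6 mice without a graft. The fractions were sorted after staining CD24, CD48 and Gr-1 as GPI markers. The knock-out graft had been treated with 10 nM aerolysin, a toxin that lyses GPI-bearing cells, for 30 minutes, and its recipients had received 9 Gy of irradiation. For recipients of the wild-type graft no such treatment is named. Between the recipients, the effects of GPI status, graft and treatment cannot be told apart. The promoter or Cre line behind the knock-out, the ages and any pooling of mice are not named in the labels. Replicates are called biological without an animal being named, and the p-values cover only the spread among the arrays at hand.

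Mitotic kinesins are made mostly in dividing cells, where they push the spindle poles apart, move and align the chromosomes, shorten microtubules and build the midzone at which the cell divides. Transport kinesins haul vesicles, mitochondria and ciliary parts, most of them towards the plus ends of microtubules, and most are made in cells at rest as well. In marrow, the dividing cells are mainly precursors of granulocytes, red cells and B cells.

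Many mitotic genes share promoter elements, and promoter sequences are shown for tested mitotic kinesins. Whether these elements bear on the differences below was not tested. The window searched ran from 250 bases before to 50 bases after each start site in RefSeq (GRCm38.p6), on both strands. Of the 40 members 32 had an entry, among them 11 of the 12 mitotic kinesins. Kif20a had none, and the 11 include Kif14 and Kif15, which were not tested on the arrays. The cell cycle genes homology region (CHR), a short element of many late cell cycle promoters, was searched as TTTGAA. It occurred in 10 of the 11 mitotic kinesin promoters (90.9%), in 1 of 12 transport kinesin promoters (8.33%), in 2 of 13 other kinesin promoters (15.4%) and in 17.9% of all 32851 promoters. Transport and other kinesins are counted by promoter, since some genes have more than 1. Kif18a was the mitotic kinesin without these letters in its window. In 8 of the 11 mitotic promoters (72.7%) they began within 30 bases of the start site, against 3.19% of all promoters. The CCAAT box, searched as CCAAT, occurred in 7 of the 11 (63.6%) against 37.4% of all promoters. A site for E2F, searched as TTTNNCGC, occurred in 2 of the 11 (18.2%) against 5.17%. Letter matches describe the sequence and do not show that a factor binds there.

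In the sequences below, written 5′ to 3′ on the strand of the gene, capitals mark TTTGAA or its reverse complement TTCAAA and CCAAT or its reverse complement ATTGG. For Kif11 and Kifc1, 100 bases are shown, and for the others 30 bases around the CHR letters. The shorter stretches leave out CCAAT letters of Kif22, Kif18b and Kif4, those nearest the start site beginning at -54, -30 and -5.
Kif11 (chr19:37376281-37376380, plus strand): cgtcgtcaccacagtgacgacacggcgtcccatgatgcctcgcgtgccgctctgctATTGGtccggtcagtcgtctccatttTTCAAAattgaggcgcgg
Kifc1 (chr17:33890615-33890714, minus strand): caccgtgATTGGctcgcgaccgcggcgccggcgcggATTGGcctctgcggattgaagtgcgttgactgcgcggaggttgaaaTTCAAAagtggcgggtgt
Kif2c (chr4:117178858-117178887, minus strand): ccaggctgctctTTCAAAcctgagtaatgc
Kif22 (chr7:127042420-127042449, minus strand): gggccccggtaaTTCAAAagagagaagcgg
Kif23 (chr9:61946780-61946809, minus strand): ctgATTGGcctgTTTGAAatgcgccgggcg
Kif18b (chr11:102925104-102925133, minus strand): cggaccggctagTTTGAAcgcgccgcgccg
Kif20b (chr19:34922353-34922382, plus strand): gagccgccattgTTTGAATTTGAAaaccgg
Kif4 (chrX:100626072-100626101, plus strand): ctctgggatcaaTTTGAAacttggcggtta
The Kif20b sequence holds the CHR letters as a pair of copies side by side, and the Kif2c sequence lies farthest from its start site, with the CHR letters beginning at -103.

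Values below are log2 values, made from the deposited values on a log10-like scale. They cannot be compared between genes, since probe sets differ in brightness for the same amount of RNA. Of the arrays as a whole, Piga was lower in both GPI-negative groups, with means of 1.74 against 3.78 in the knock-out, and 0.51 against 4.13 and 4.20 in batch 2. Neutrophil markers were bright in every group, with list means of 9.63 to 10.65. Knock-out GPI-negative and GPI-positive arrays also differed in the hybridisation controls, at 7.78 ± 0.33 against 5.70 ± 0.27 (SD, n = 3 each), and in the Gapdh 3′ minus 5′ signal, at -0.16 ± 0.13 against -1.02 ± 0.02. The 3 knock-out GPI-positive arrays were close to each other, with a median SD over bright genes of 0.064 against 0.174 among the GPI-negative arrays. Whether these differences bear on the kinesin values was not tested.

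In cells lacking GPI, mitotic kinesins were lower in the knock-out and after transplantation, while the wild-type graft showed no called difference from wild-type marrow. In knock-out marrow 7 of the 10 tested were called lower in GPI-negative cells (adjusted p under 0.05, limma with Benjamini-Hochberg over 14245 genes), where 14.8% of all genes were called lower. Between the recipients 6 of 10 were called lower, against 3.45% of all genes. Knock-out graft cells had 8 of 10 lower than wild-type cells, against 5.55% of all genes. None was called higher in these comparisons (14.8%, 3.95% and 6.84% of all genes were), and each of the 10 had a negative difference in each of them. The median differences were -0.54, -0.61 and -0.55 on the log2 scale, beside medians over all genes of -0.01, -0.01 and 0.02. These counts depend on the classes chosen: Kif2a, placed with the other kinesins, differed by 0.15, -0.30 and -0.18, none of them called. The comparisons of the knock-out graft with the wild-type graft and with wild type share the knock-out graft arrays, and the knock-out fractions share no array with either. Fewer dividing cells and less RNA per cell cannot be told apart in such bulk samples.

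**Figure D1:**
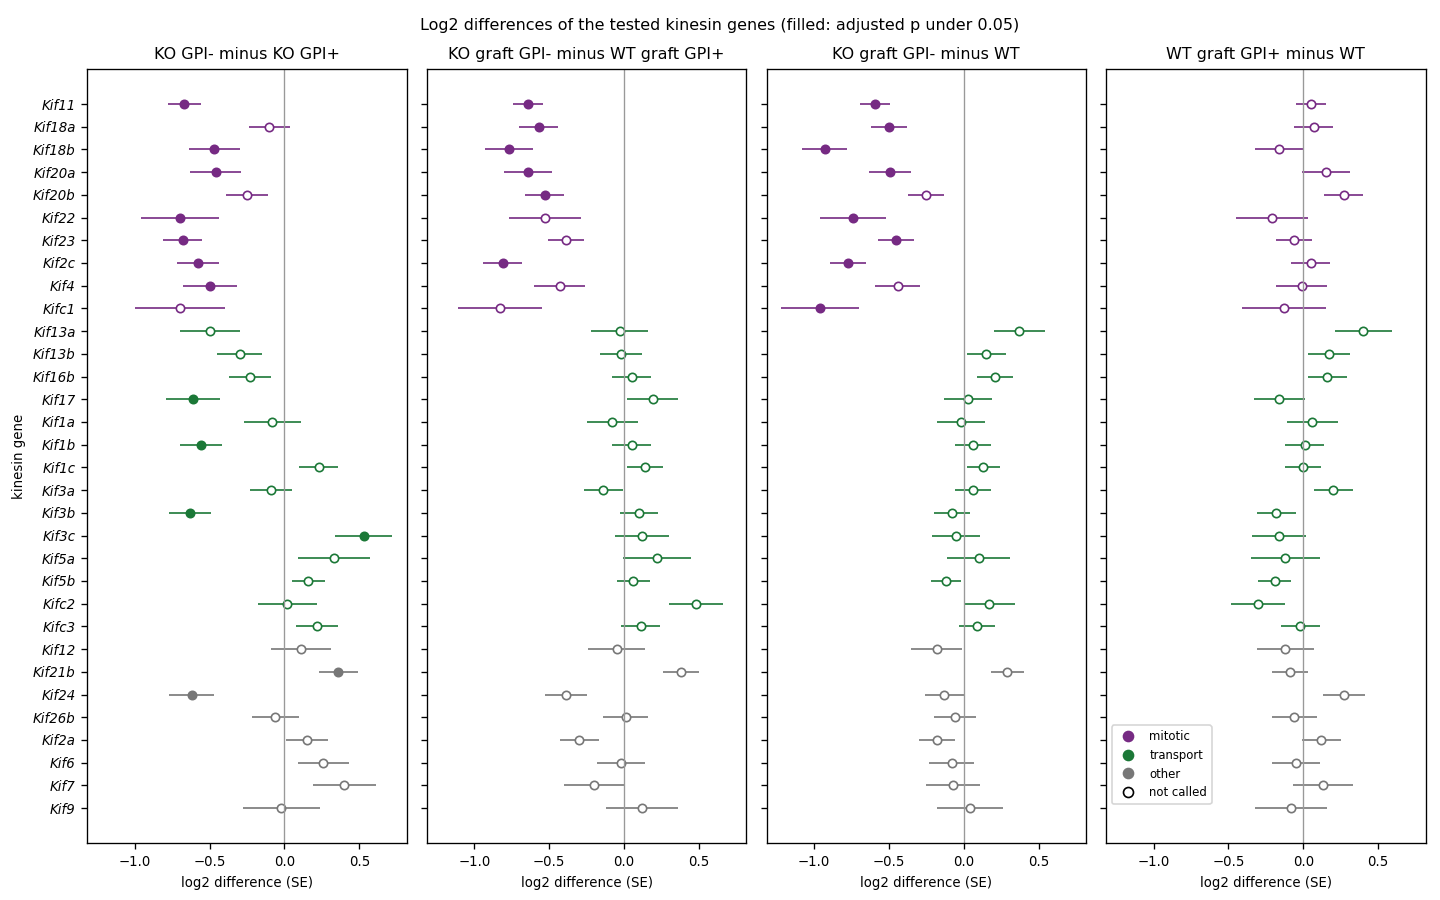
Log2 differences of the 32 tested kinesin genes in the 4 comparisons within a batch, with bars of 1 SE, coloured by class, and filled where the adjusted p is under 0.05. The 10 mitotic kinesins at the top lie left of 0 in the first 3 panels, with 7, 6 and 8 filled, and none is filled in the last panel.

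In the wild-type graft against wild type, 0 of 10 mitotic kinesins passed limma's test, where 0.393% of all genes were called lower and 0.449% higher. At an unadjusted p under 0.05, 1 differed, Kif20b, with a difference of 0.27. The median over the 10 genes was 0.02, and the differences ran from -0.21 to 0.27. In none of the 10 did the groups lie apart, as they did with lower values for 5.85% and with higher values for 8.03% of all genes. This comparison shares the wild-type arrays with the comparison of knock-out graft and wild type, and the wild-type graft arrays with the comparison of the recipients.

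Kif11 encodes the motor that slides antiparallel microtubules and drives spindle poles apart. Kif11 read 3.94, 4.10 and 4.0 on the knock-out GPI-negative arrays and 4.61, 4.75 and 4.68 on the GPI-positive ones. In batch 2, Kif11 read 4.42, 4.32, 4.56 and 4.27 in knock-out graft cells, 5.07, 4.94 and 5.11 in wild-type graft cells, and 4.81, 5.08, 5.13 and 4.92 in wild-type cells. Every GPI-negative array lay below every GPI-positive array of its batch. Kif11 was 1.59-fold lower in the knock-out (log2 difference -0.67 ± 0.11 SE, adjusted p = 8.4e-05, limma). Between the recipients Kif11 was 1.56-fold lower (-0.64 ± 0.10, adjusted p = 0.00037, limma), and against wild type 1.51-fold lower (-0.59 ± 0.10, adjusted p = 0.00025, limma). The exact two-sided permutation p for Kif11 was 0.1 in the knock-out and 0.02857 in each of the others, in each case the smallest the group sizes allow. Its other 2 probe sets were lower too, by -0.99 and -1.04 in the knock-out and by -0.72 and -0.66 between the recipients. Kif15, which can stand in for Kif11 at the spindle, was too dim to test.

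Kif2c encodes a motor that does not walk but strips tubulin from microtubule ends and so corrects faulty attachments at the centromere. Kif2c read 3.14, 3.72 and 3.71 on knock-out GPI-negative arrays against 4.07, 4.11 and 4.13 on GPI-positive ones. It read 3.48, 3.82, 3.47 and 3.59 in knock-out graft cells, 4.55, 4.37 and 4.28 in wild-type graft cells, and 4.31, 4.38, 4.50 and 4.23 in wild-type cells. As with Kif11, GPI-negative and GPI-positive arrays did not overlap within a batch. The probe set is of a type that can match other transcripts, and the 3 other probe sets of Kif2c were also lower, by -0.38 to -1.03 in the knock-out and by -0.22 to -0.58 between the recipients. The log2 differences were -0.58 ± 0.14 (SE) in the knock-out (adjusted p = 0.0031, limma), -0.81 ± 0.13 between the recipients (adjusted p = 0.00039) and -0.77 ± 0.12 against wild type (adjusted p = 0.00022).

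Kif18a and Kif18b belong to the kinesin-8 group, which dampens microtubule growth at the chromosomes and on astral microtubules. Kif18b read 2.92, 2.96, 2.92 and 2.87 in knock-out graft cells, 3.66, 3.68 and 3.70 in wild-type graft cells, and 3.70, 3.78, 3.92 and 3.97 in wild-type cells. The 4 knock-out graft arrays lay close together and below all others of the batch. The difference of Kif18b was -0.77 ± 0.16 between the recipients (adjusted p = 0.0044, limma) and -0.93 ± 0.15 against wild type (adjusted p = 0.00025). In the knock-out, Kif18b read 2.83, 3.94 and 3.28 in GPI-negative cells and 3.84, 3.85 and 3.76 in GPI-positive cells. Replicate 2 of the GPI-negative cells thus lay above every GPI-positive array, and the groups overlapped. The difference there was -0.47 ± 0.17 (adjusted p = 0.046, limma). This call was lost without GPI-negative replicate 1 or 3 (adjusted p = 0.32 and 0.11, limma) or any one GPI-positive array (0.079 to 0.11).

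Kif18a passed the test in batch 2 and not in the knock-out. Kif18a read 2.02, 1.89, 1.95 and 1.85 in knock-out graft cells, 2.52, 2.52 and 2.44 in wild-type graft cells, and 2.31, 2.56, 2.32 and 2.51 in wild-type cells, without overlap. Its difference was -0.57 ± 0.13 between the recipients (adjusted p = 0.0081, limma) and -0.50 ± 0.12 against wild type (adjusted p = 0.0077). In the knock-out, Kif18a read 1.75, 2.26 and 2.0 against 1.87, 2.12 and 2.31, which overlap (-0.10 ± 0.14, adjusted p = 0.64, limma). The difference between the knock-out and recipient effects of Kif18a did not pass either, nor did that of any of the other mitotic kinesins.

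Kif22 and Kif4 encode chromokinesins, which ride on chromosome arms and push them towards the spindle equator. Kif22 read 5.30, 6.40 and 5.53 in knock-out GPI-negative cells and 6.28, 6.48 and 6.56 in GPI-positive cells. Kif4 read 2.39, 3.30 and 2.68 against 3.41, 3.14 and 3.33. In both genes, GPI-negative replicate 2 lay inside the GPI-positive range and the other GPI-negative arrays below it. Kif22 was called lower in the knock-out (-0.70 ± 0.26, adjusted p = 0.048, limma), and so was Kif4 (-0.50 ± 0.18, adjusted p = 0.036). The Kif22 call was lost without GPI-negative replicate 1 or 3 or any one GPI-positive array (adjusted p = 0.064 to 0.22, limma), and the Kif4 call without replicate 1 or 3 of either fraction (0.095 to 0.22).

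In batch 2, Kif22 read 6.07, 6.01, 6.07 and 5.72 in knock-out graft cells, 6.07, 6.16 and 7.28 in wild-type graft cells, and 7.02, 6.53, 6.78 and 6.52 in wild-type cells. Wild-type graft replicate 3 stood well above the other 2 of its group. The probe set is of a type that can match other transcripts, and the other 2 probe sets of Kif22 were lower between the recipients, by -0.57 and -0.82. Kif22 was called lower against wild type (-0.74 ± 0.22, adjusted p = 0.032, limma) and not between the recipients (-0.53 ± 0.24, adjusted p = 0.22). Without wild-type graft replicate 3 that difference was -0.15 ± 0.21 (adjusted p = 0.82, limma), and with the mean of the kept probe sets it was called (-0.64 ± 0.14, adjusted p = 0.0091). The call against wild type was lost without knock-out graft replicate 2 or 4 or wild-type replicate 1 or 3 (adjusted p = 0.059 to 0.11, limma). Kif4 read 2.78, 3.13, 2.66 and 2.70 in knock-out graft cells, 3.31, 3.03 and 3.40 in wild-type graft cells, and 3.18, 3.17, 3.32 and 3.38 in wild-type cells. Its differences of -0.43 ± 0.17 and -0.44 ± 0.15 did not pass (adjusted p = 0.13 and 0.064, limma), though knock-out graft and wild-type arrays did not overlap. Against wild type Kif4 passed without knock-out graft replicate 2 (-0.55 ± 0.16, adjusted p = 0.03, limma), with array weights (adjusted p = 0.02) and with only the groups of the contrast (0.025).

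Kif20a, Kif20b and Kif23 encode kinesin-6 motors of the spindle midzone, where Kif23 pairs with Racgap1 to form centralspindlin. Kif23 read 4.23, 4.54 and 4.49 in knock-out GPI-negative cells against 5.11, 5.09 and 5.09 in GPI-positive cells. The GPI-positive arrays were nearly equal and all lay above the GPI-negative ones (-0.68 ± 0.13, adjusted p = 0.00056, limma). In batch 2, Kif23 read 4.26, 4.49, 4.84 and 4.45 in knock-out graft cells, 4.79, 5.0 and 4.92 in wild-type graft cells, and 4.75, 4.96, 5.15 and 4.98 in wild-type cells. The third knock-out graft array reached into both GPI-positive ranges. Kif23 was called lower against wild type (-0.45 ± 0.12, adjusted p = 0.012, limma), and between the recipients the difference of -0.39 ± 0.12 did not pass (adjusted p = 0.061). It passed without knock-out graft replicate 3 (-0.50 ± 0.12, adjusted p = 0.011, limma). Its partner Racgap1 was not called, with -0.25 ± 0.17 in the knock-out and -0.25 ± 0.16 between the recipients.

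Kif20a, which brings the chromosomal passenger complex to the midzone, read 2.96, 3.85 and 3.29 in knock-out GPI-negative cells and 3.86, 3.72 and 3.88 in GPI-positive cells. Again replicate 2 of the GPI-negative cells lay inside the GPI-positive range (-0.46 ± 0.17, adjusted p = 0.044, limma). The call was lost without GPI-negative replicate 1 or 3 or any one GPI-positive array (adjusted p = 0.062 to 0.26, limma). Kif20a read 3.23, 2.97, 3.27 and 3.22 in knock-out graft cells, 3.77, 3.76 and 3.91 in wild-type graft cells, and 3.36, 3.73, 3.71 and 3.85 in wild-type cells. The knock-out graft arrays lay below both other groups, with differences of -0.64 ± 0.16 (adjusted p = 0.012, limma) and -0.49 ± 0.14 (adjusted p = 0.026). The former was lost without wild-type graft replicate 3 (adjusted p = 0.063, limma), and the latter without knock-out graft replicate 2 or wild-type replicate 2, 3 or 4 (0.066 to 0.092).

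Kif20b read 3.28, 3.18, 3.42 and 3.30 in knock-out graft cells, 4.07, 3.92 and 3.49 in wild-type graft cells, and 3.37, 3.72, 3.72 and 3.40 in wild-type cells. Knock-out graft arrays lay below the wild-type graft and overlapped with wild type. Kif20b was called lower between the recipients (-0.53 ± 0.13, adjusted p = 0.012, limma) and not against wild type (-0.25 ± 0.12, adjusted p = 0.19). The recipient call was lost without wild-type graft replicate 1 or 2 (adjusted p = 0.084 and 0.069, limma). In the knock-out, Kif20b read 3.36, 3.41 and 3.49 against 3.68, 3.72 and 3.61, without overlap, but the difference of -0.25 ± 0.14 did not pass (adjusted p = 0.19, limma). Kif14, another motor of the midzone, was too dim to test.

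Kifc1 encodes a motor that walks to minus ends and gathers spindle poles. Its probe set is of a type that can match related transcripts, so its identity is less certain, as for Kif2c and Kif22. Kifc1 read 2.94, 3.58 and 2.89 in knock-out GPI-negative cells and 3.77, 3.73 and 4.01 in GPI-positive cells. It read 2.66, 2.28, 2.18 and 2.47 in knock-out graft cells, 3.34, 3.92 and 2.44 in wild-type graft cells, and 3.81, 2.91, 3.86 and 2.88 in wild-type cells. The GPI-positive arrays of batch 2 were spread widely, and wild-type graft replicate 3 lay among the knock-out graft arrays. Kifc1 was called lower against wild type (-0.96 ± 0.26, adjusted p = 0.015, limma), and differences of -0.70 ± 0.30 in the knock-out and -0.83 ± 0.28 between the recipients did not pass (adjusted p = 0.083 and 0.075). They passed without knock-out GPI-negative replicate 2 (-0.92 ± 0.32, adjusted p = 0.034, limma) and without wild-type graft replicate 3 (-1.23 ± 0.26, adjusted p = 0.0073). The call against wild type was lost without wild-type replicate 1 or 3 (adjusted p = 0.062 and 0.067, limma).

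**Figure D2:**
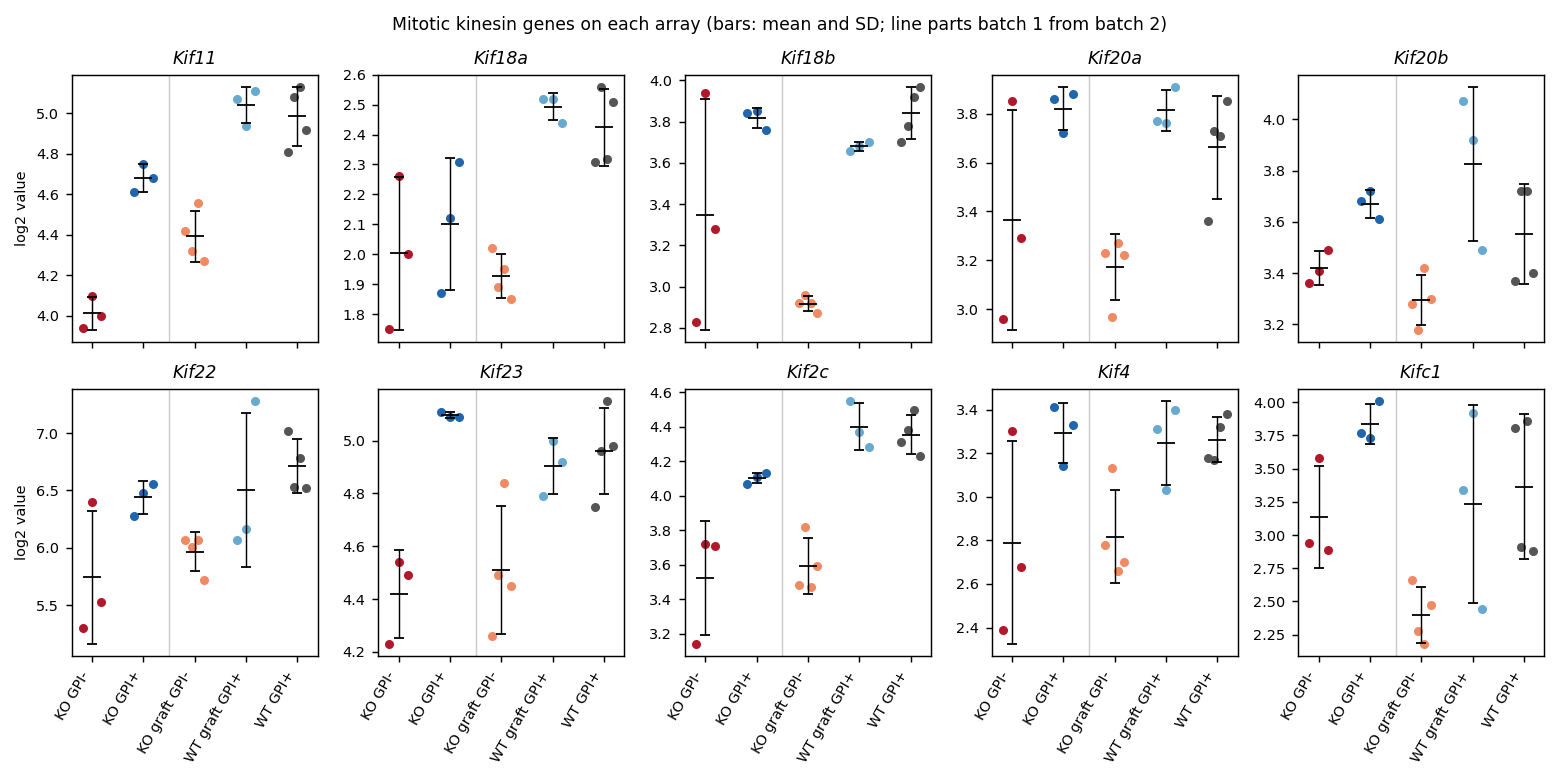
Log2 value of each tested mitotic kinesin on each of the 17 arrays, by group, with bars for the mean and SD, on an axis that does not start at 0. For Kif18b the 4 knock-out graft arrays lie between 2.87 and 2.96 while knock-out GPI-negative arrays spread from 2.83 to 3.94.

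Taking groups that did not overlap, 5 of the 10 mitotic kinesins were lower in knock-out GPI-negative cells, where 21.2% of all genes were. Between the recipients 6 of 10 did not overlap and were lower (7.5% of all genes), and against wild type 8 of 10 (7.01%). None was higher without overlap in these comparisons, where 22%, 8% and 9.32% of all genes were. Kif11, Kif18b, Kif20a and Kif2c were called lower both in the knock-out and between the recipients, comparisons without a shared array, as were 196 of all genes (1.38%). All 11 other probe sets of mitotic kinesins that passed the filter were lower in the knock-out, between the recipients and against wild type, with medians of -0.63, -0.47 and -0.55. In the wild-type graft against wild type, 7 of these 11 probe sets were lower and 3 higher, with a median of -0.11.

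The knock-out count rested on which arrays were used. Replicate 2 of the GPI-negative cells had a mean over the 10 mitotic kinesins of 3.91, while replicates 1 and 3 had 3.28 and 3.54 and the GPI-positive arrays 4.05, 4.07 and 4.14. That replicate also had the highest mean over 9 erythroid markers, at 6.31, against 5.20 and 5.53 in the other GPI-negative arrays and 5.52 to 5.57 in the GPI-positive ones, and the part of these markers in the kinesin values was not tested. Without replicate 2, 8 of 10 were called lower with a median of -0.72, where 13.8% of all genes were called lower. Without GPI-negative replicate 1 or 3, or GPI-positive replicate 1 or 3, the count was 3, and without GPI-positive replicate 2 it was 4. In these fits 11.4% to 13.5% of all genes were called lower. Kif11 and Kif23 were called in each of these fits and under each other alternative tried. Against wild type the count of 8 became 5 without wild-type replicate 3, where 4.16% of all genes were called lower.

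Markers of other cells moved with the same comparisons. Beside the counts below, 14.8% of all genes were called lower in the knock-out, 3.45% between the recipients and 5.55% against wild type. The shares called higher were 14.8%, 3.95% and 6.84%. T and NK cell markers were higher in GPI-negative cells for 8 of 8 genes in the knock-out, between the recipients and against wild type, with list means of 5.72 to 5.87 against 1.81 to 1.97 in the knock-out. In batch 2 these means were 3.41 to 4.61 in knock-out graft cells, 1.77 to 2.22 in wild-type graft cells and 2.04 to 2.44 in wild-type cells. Erythroid markers were called lower for 0 of 9 genes in the knock-out, 4 of 9 between the recipients and 8 of 9 against wild type. Their means were 3.54 to 4.88 in knock-out graft cells, 4.84 to 5.38 in wild-type graft cells and 5.46 to 5.95 in wild-type cells. Neutrophil markers were called lower for 6, 3 and 1 of 9 genes, with list means of 9.63 to 9.75 against 10.48 to 10.5 in the knock-out. Plasmacytoid dendritic cell markers were called higher for 4 of 4 genes in each of these comparisons. Macrophage markers were called lower for 5, 4 and 4 of 7 genes and higher for 0, 2 and 2, B cell markers higher for 4, 0 and 0 of 6 and lower for 0, 0 and 1, and eosinophil markers lower for 2, 1 and 0 of 2. Of the macrophage markers, C1qa and C1qc were under the 40th percentile on every array of both GPI-negative groups, so they passed the filter only through groups where they are high and their calls carry no weight. No marker tested had a deposited value of 0 on any of the 17 arrays. The mitotic kinesin mean ran from 3.44 to 3.53 over the 4 knock-out graft arrays, while their erythroid mean ran from 3.54 to 4.88 and their T and NK mean from 3.41 to 4.61. What share of the kinesin differences goes with these cell types was not tested.

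**Figure D3:**
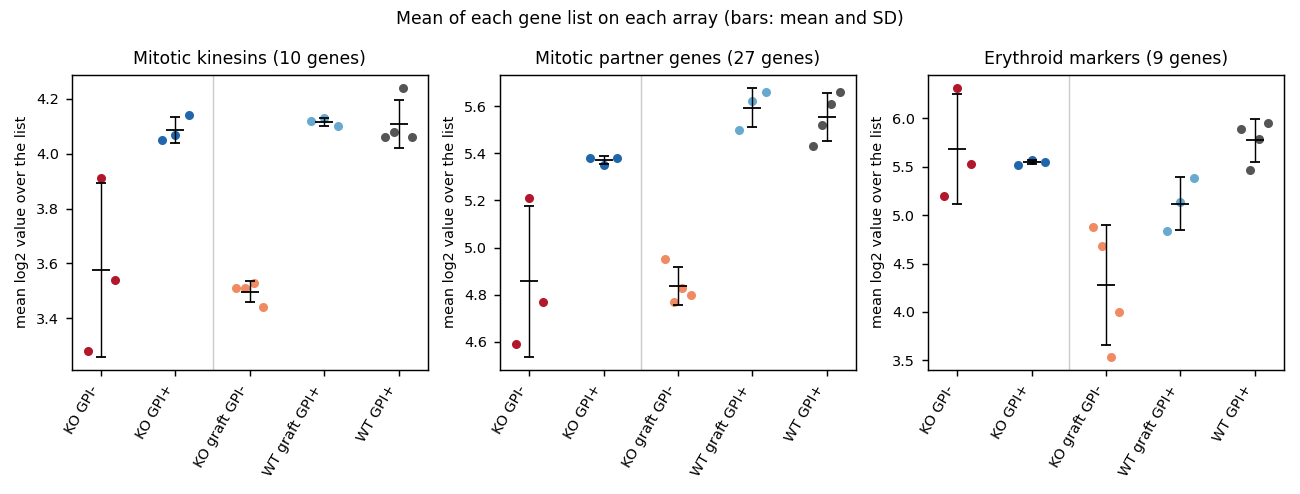
Mean log2 value on each array over the 10 tested mitotic kinesins, 27 mitotic partner genes and 9 erythroid markers, by group, with bars for the mean and SD, on axes that do not start at 0. The kinesin means of the 4 knock-out graft arrays lie between 3.44 and 3.53, below the 4.06 to 4.24 of wild-type cells.

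Genes that work with the mitotic kinesins were lower in the same comparisons. Of 28 partner genes on a list that covers the passenger complex, the midzone, the checkpoint and mitotic kinases, 27 were tested, all but Ccnb1. In the knock-out 19 were called lower and 1 higher, where 14.8% of all genes were called in each direction. Between the recipients and against wild type 25 were called lower, against 3.45% and 5.55% of all genes. None was called higher in these, where 3.95% and 6.84% of all genes were. The medians of the partner genes were -0.63, -0.77 and -0.77. Without knock-out GPI-negative replicate 2, 22 of the 27 were called lower in the knock-out and none higher, with a median of -0.81. Of all genes, 13.8% were then called lower and 13.6% higher. The lowest adjusted p in the knock-out was that of Anln, a scaffold of the contractile ring, at -0.95 ± 0.13 (adjusted p = 1.3e-05, limma). Cdc20, which switches on the anaphase-promoting complex, was lower by -0.76 ± 0.12 in the knock-out, -0.85 ± 0.11 between the recipients and -0.84 ± 0.10 against wild type. Aurkb, the kinase of the passenger complex, was lower in the knock-out by -0.74 ± 0.13, and Cenpe, itself a kinesin of the centromere whose symbol falls outside the member rule, by -0.69 ± 0.12. Numa1, a spindle pole protein, was the partner called higher in the knock-out (0.32 ± 0.12, adjusted p = 0.047, limma). In the wild-type graft against wild type 0 of 27 partners were called by limma, where 0.842% of all genes were. The same CHR letters occurred in 19 of 27 partner promoters (70.4%), against 17.9% of all promoters. These promoters were counted over all 28 listed genes, tested or not, and so are not the set of 27 tested genes.

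Few transport kinesins were called. In the knock-out 3 of 14 were called lower and 1 higher, a share close to that of all genes, of which 29.5% were called in either direction. Between the recipients, where 7.39% of all genes were called, and against wild type (12.4%), none of the 14 was called by limma, with 1 at an unadjusted p under 0.05 in each. Their medians were -0.09 in the knock-out, 0.08 between the recipients and 0.08 against wild type. In the wild-type graft against wild type, where 0.842% of all genes were called, none of the 14 passed and 1 did at an unadjusted p under 0.05.

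Kif3b and Kif1b were the transport kinesins with the clearest knock-out difference. Kif3b, a subunit of the heterotrimeric kinesin-2 that carries ciliary and other cargo, read 3.03, 2.68 and 2.45 in knock-out GPI-negative cells and 3.39, 3.42 and 3.24 in GPI-positive cells. The groups did not overlap (-0.63 ± 0.14, adjusted p = 0.0015, limma), and the 3 other probe sets of Kif3b were lower as well. In batch 2, Kif3b read 2.45, 2.60, 2.73 and 2.90 in knock-out graft cells, 2.58, 2.62 and 2.51 in wild-type graft cells, and 2.72, 2.82, 2.85 and 2.62 in wild-type cells, with overlap between knock-out graft and both others, while the wild-type graft lay just below wild type without overlap (-0.18 ± 0.13, not called). The recipients differed by 0.10 ± 0.13.

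Kif1b, which moves mitochondria and synaptic vesicle precursors, read 3.06, 3.07 and 3.20 in knock-out GPI-negative cells and 3.65, 3.77 and 3.59 in GPI-positive cells. The groups lay apart (-0.56 ± 0.14, adjusted p = 0.0043, limma), and its 6 other kept probe sets were all lower. In batch 2, Kif1b read 3.13, 3.38, 2.99 and 3.29 in knock-out graft cells, 3.16, 3.0 and 3.28 in wild-type graft cells, and 3.35, 2.98, 2.85 and 3.37 in wild-type cells. These ranges overlap throughout.

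Kif17, a homodimeric kinesin-2, read 1.69, 1.06 and 1.99 in knock-out GPI-negative cells and 2.05, 2.31 and 2.21 in GPI-positive cells. The groups did not overlap (-0.61 ± 0.18, adjusted p = 0.014, limma), but GPI-negative replicate 2 was far the lowest. Without it Kif17 was not called (-0.35 ± 0.16, adjusted p = 0.11, limma), and its other kept probe set differed by 0.03. The call was also lost without GPI-positive replicate 2 (adjusted p = 0.061, limma). Kif17 read 1.94, 1.64, 1.80 and 1.86 in knock-out graft cells, 1.69, 1.72 and 1.44 in wild-type graft cells, and 1.56, 1.71, 1.86 and 1.98 in wild-type cells, all overlapping. Kif3c, a kinesin-2 subunit that pairs with Kif3a, read 2.76, 2.47 and 2.05 against 1.82, 1.77 and 2.09 in the knock-out. Those groups overlap, and Kif3c was called higher (0.53 ± 0.19, adjusted p = 0.036, limma), while its other kept probe set was lower by -0.37. The Kif3c call was lost without GPI-negative replicate 1 or 2 or GPI-positive replicate 1 or 2 (adjusted p = 0.078 to 0.19, limma). In batch 2, Kif3c read 2.01, 2.47, 2.12 and 2.08 in knock-out graft cells and 2.35, 1.97 and 1.83 in wild-type graft cells. It read 2.56, 2.27, 2.06 and 1.98 in wild-type cells, and all these groups overlapped.

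**Figure D4:**
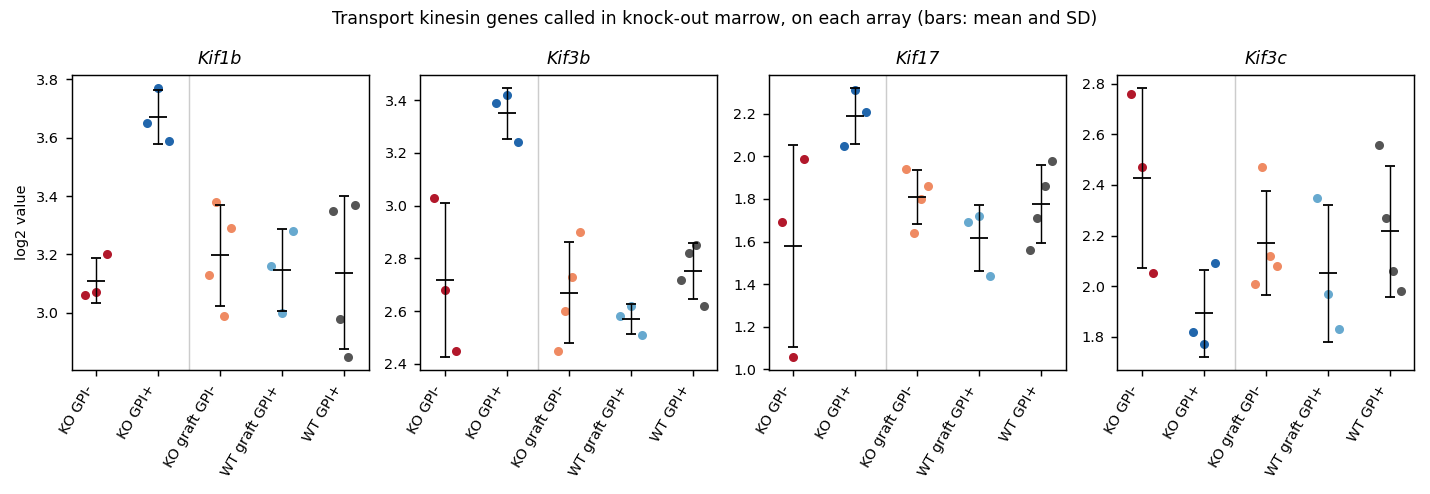
Log2 values of Kif1b, Kif3b, Kif17 and Kif3c on each array, by group, with bars for the mean and SD, on axes that do not start at 0. Kif3b reads 2.45 to 3.03 in knock-out GPI-negative and 3.24 to 3.42 in GPI-positive cells, and in batch 2 the knock-out graft overlaps both other groups.

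The knock-out differences of these transport genes were set against those between the recipients. The knock-out difference was lower than the recipient difference by -0.72 ± 0.19 for Kif3b (adjusted p = 0.0098, limma), -0.80 ± 0.25 for Kif17 (adjusted p = 0.026) and -0.61 ± 0.19 for Kif1b (adjusted p = 0.03), where 9.96% of all genes were called lower in that test. No mitotic kinesin was called in it, with 1 at an unadjusted p under 0.05, and 9.04% of all genes were called higher. Without GPI-negative replicate 1 of the knock-out, 2 mitotic kinesins were called higher, Kif18a and Kif18b. That fit called 2833 of all 14245 genes, 1470 of them lower. The 3 transport calls fell to 1, that of Kif3b, without knock-out GPI-negative replicate 2 or GPI-positive replicate 2. Those fits called 8.87% and 7.85% of all genes lower. Kif17 also missed the threshold without GPI-positive replicate 3 or wild-type graft replicate 3 (adjusted p = 0.054 and 0.073, limma). Kif1b did so without GPI-negative or GPI-positive replicate 1, knock-out graft replicate 2 or 4, or wild-type graft replicate 2 (0.052 to 0.081). The 4 transport calls in the knock-out fell to 2, Kif1b and Kif3b, without GPI-negative replicate 2 or GPI-positive replicate 2. Of all genes, 13.8% and 11.4% were then called lower. Kif13a, a transport kinesin of endosomes, differed by -0.50 ± 0.20 in the knock-out (adjusted p = 0.068, limma) and by 0.37 ± 0.17 against wild type (adjusted p = 0.19), neither of them called. It was called lower in the knock-out without GPI-negative replicate 3 (-0.70 ± 0.21, adjusted p = 0.017, limma) or with the mean of its kept probe sets (-0.44 ± 0.10, adjusted p = 0.0023). With that mean its knock-out difference was also lower than its recipient difference (-0.42 ± 0.14, adjusted p = 0.035, limma). Without knock-out graft replicate 1 it was called higher against wild type (0.53 ± 0.17, adjusted p = 0.042, limma). Kif13b, a relative of Kif13a, was called lower in the knock-out without GPI-negative replicate 1 (-0.44 ± 0.15, adjusted p = 0.036, limma).

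The 10 transport kinesins called in no comparison over all 17 arrays included Kif5b, the conventional kinesin of most cells, and Kif3a, the common kinesin-2 subunit. The transport class differed by between -0.63 and 0.53 in the knock-out, between -0.14 and 0.48 between the recipients, and between -0.12 and 0.37 against wild type. Among the other kinesins, 2 of 8, Kif24 and Kif21b, were called in the knock-out, near the 29.5% of all genes. None of the 8 was called between the recipients (7.39% of all genes), against wild type (12.4%) or in the wild-type graft against wild type (0.842%). Kif24, which trims microtubules at centrioles, read 1.56, 2.06 and 1.78 in GPI-negative and 2.62, 2.27 and 2.38 in GPI-positive cells (-0.62 ± 0.15, adjusted p = 0.0024, limma). Kif21b, which restrains microtubule growth and is found in lymphocytes and neurons, read 5.57, 5.55 and 5.54 against 5.16, 5.27 and 5.14 (0.36 ± 0.13, adjusted p = 0.043, limma). In both genes the knock-out groups did not overlap. The Kif21b call was lost without any one of the 6 arrays (adjusted p = 0.062 to 0.12, limma). In batch 2, Kif24 read 2.05, 1.86, 1.64 and 1.86 in knock-out graft cells, 2.17, 2.45 and 2.12 in wild-type graft cells, and 1.91, 1.95, 1.99 and 2.07 in wild-type cells. The graft groups did not overlap for Kif24, but the difference of -0.39 ± 0.14 did not pass (adjusted p = 0.089, limma). It passed without knock-out graft replicate 1 (-0.46 ± 0.14, adjusted p = 0.047, limma) and with array weights (-0.47 ± 0.14, adjusted p = 0.037). The other kept probe sets of Kif24 differed by 0.11 and 0.08 between the recipients and by -0.51 and -0.04 in the knock-out. Against wild type the knock-out graft differed by -0.13 ± 0.13, and the wild-type graft lay above wild type without overlap (0.27 ± 0.14, not called). Kif21b read 4.70, 5.05, 5.0 and 4.84 in knock-out graft cells, 4.78, 4.44 and 4.33 in wild-type graft cells, and 4.55, 4.41, 4.89 and 4.57 in wild-type cells, with overlap. Kif21b was not called between the recipients (0.38 ± 0.12, adjusted p = 0.069, limma), but was higher without knock-out graft replicate 1 (0.44 ± 0.13, adjusted p = 0.032) or wild-type graft replicate 1 (0.51 ± 0.13, adjusted p = 0.02). Without wild-type replicate 3 it was called higher against wild type (0.39 ± 0.11, adjusted p = 0.033, limma). Kif2a, a depolymerising relative of Kif2c, was not called, with differences of 0.15 ± 0.14 in the knock-out and -0.30 ± 0.13 between the recipients. Without knock-out GPI-negative replicate 1 the former exceeded the latter (by 0.62 ± 0.17, adjusted p = 0.013, limma), and with the mean of its kept probe sets Kif2a was called lower against wild type (-0.27 ± 0.08, adjusted p = 0.047). The other kept probe sets of Kif2a were all lower in the knock-out, by -0.10 to -0.80, unlike the one used. Between the recipients they differed by -0.10 to 0.

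Genes for the accessory parts of transport were called no more often than genes in general in the 4 comparisons within a batch. Of 14 kinesin light chain and adaptor genes 10 were tested, and only Trak2, which links kinesin to mitochondria, was called, lower in knock-out graft cells than in wild-type cells (-1.06 ± 0.18, adjusted p = 0.00031, limma). Trak2 also read lower in the wild-type graft than in wild type, by -0.69 ± 0.19, without passing the test. Of 19 dynein and dynactin genes, which serve a motor opposite in direction to most transport kinesins, 17 were tested. In the knock-out 4 of the 17 were called, near the 29.5% of all genes. Dync1h1, the dynein heavy chain, was higher there (0.82 ± 0.14, adjusted p = 0.00012, limma), as was the light chain Dynll2 (0.37 ± 0.13). Ndel1, a dynein regulator, was lower (-0.78 ± 0.15, adjusted p = 5e-04, limma), as was the intermediate chain Dync1i2 (-0.41 ± 0.09). Nde1, a relative of Ndel1 that also acts in mitosis, was lower between the recipients (-0.46 ± 0.11, adjusted p = 0.0091, limma) and against wild type (-0.34 ± 0.10), and it was not called in the knock-out at 0.30 ± 0.11.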

How the data were processed

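RNA of sorted marrow cells was measured on 17 Affymetrix arrays in 5 groups. The authors' deposited values are on a log10-like scale; the base was read from the values. Within each batch the sorted deposited values are identical, so arrays had been quantile-normalized per batch. How background was corrected and probes were summarised is not stated in the labels. GCOS (version 12) is named without a role, per the submitters' processing notes, and RNA input was 500 ng in a first and 1 µg in a second experiment, per the labels' protocols. Dividing by log10 of 2 converted them to log2 values, and arrays were centred on a common median. Control probe sets (64 of 45101) were left out, 34945 carried 1 symbol, and 32426 passed the filter (40th percentile on at least 3 arrays). The scale flattens near the floor, so differences of dim genes may be compressed.

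One limma fit (version 3.58.1 in R 4.3.3; lmFit, eBayes with an intensity trend) had 5 group means and 12 residual degrees of freedom, with no replicate block, and contrasts were taken within a batch. Benjamini-Hochberg adjustment ran over 14245 genes, with a threshold of 0.05. Exact permutation tests were two-sided. The labels do not say whether replicate numbers pair the arrays. Same-numbered arrays had correlations of deviations of -0.18 to 0.098, which with so few arrays cannot settle it. On simulated data with 14245 genes, log2 changes of 0.5 were recovered for 32% (knock-out), 37% (recipients), 36% (knock-out graft against wild type) and 34% (wild-type graft against wild type) of 100 genes each, and changes of 1 for 80%, 92%, 91% and 93%. Only 100 genes of each size were changed there, and a gene had the same spread in all groups. In the data, 29.5% of genes were called in the knock-out, and the spreads of the groups differed. The recovery rates thus do not measure how many true differences the comparisons here would find.

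The members are fixed by their symbols. Array values were given for all tested mitotic kinesins and for any member called, and partner genes were named by smallest adjusted p, up to 4 per comparison; Racgap1, Numa1, Kif13a, Kif13b and Kif2a fall outside this rule and were chosen after their values were seen. The members, classes and lists were chosen with earlier results of these data known. The array annotation's symbols for all 40 members were found in a RefSeq table. No deposited per-sample column was left unused (0). Precision is limited by the number of arrays. Alternatives changed scaling, filter, probe set choice, spread estimate, array weights, replicate block and each array left out.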

Additional observations from a re-analysis of the deposited data

Results flagged for a closer look

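In groups of 4 arrays, an array was singled out when its gap to the nearest other, as a share of the group's range, exceeded Dixon's 95% critical value, and 2 of the 64 groups of kinesin values tested met this, where chance gives about 1 in 20. Kif20a read 2.97 in knock-out graft replicate 2 against 3.22 to 3.27 on the other 3 arrays. Kif7, a ciliary signalling kinesin, read 1.44 in wild-type replicate 1 against 0.81 to 0.84 on the other 3.

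Kif17, Kif1b and Kif3b differed between the knock-out and the recipients by the interaction test, with differences of -0.80, -0.61 and -0.72 on the log2 scale. These sets of arrays lie in different batches, and batch and experiment cannot be told apart in that contrast.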

How the results depend on the processing

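Alternatives were run for kinesin genes only, not for the partner, adaptor and dynein genes. For 37 differences of single kinesin genes, mostly the called ones and the mitotic ones, 658 values under alternatives were kept: 553 stayed on their side of the threshold, 94 lost a call, 11 gained one and no called value changed sign. Over all 32 tested kinesins and all 5 contrasts, 28 calls were gained. In the knock-out, the count of mitotic kinesins called was 4 with no filter on dim probe sets, 4 with only the groups of the contrast, 4 with no intensity trend and 2 with the GPI-positive arrays averaged into 1, an alternative chosen after seeing the data. Of all genes, 11.2%, 13.2%, 14.4% and 5.74% were called lower in these fits. The other 7 alternatives that kept every array gave 5 to 8, where 13.9% to 20.1% of all genes were called lower. Leaving out 1 array in turn gave 3 to 8 mitotic calls in the knock-out, 5 to 7 between the recipients and 5 to 8 against wild type. Of all genes, 11.4% to 13.8%, 2% to 4.68% and 4.03% to 5.62% were called lower in those fits. Mitotic calls were then 0 for the wild-type graft and 0 to 2 for the difference of effects. Transport calls in the knock-out were 2 with only the groups of the contrast and 0 with averaged GPI-positive arrays, and 2 to 5 with 1 array left out. Transport calls in the difference of effects were 1 with the replicate block, 0 with averaged GPI-positive arrays, and 1 to 3 with 1 array left out. Of all genes, 8.45% were called lower there with the block, 4.08% with averaged arrays and 7.85% to 10.7% with 1 array left out. Transport calls against wild type were 0 to 1, and 0 in the remaining comparisons.

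With the replicate number as a block, mitotic calls were 5, 5, 8 and 0 in the 4 comparisons within a batch and transport calls 4, 0, 0 and 0. That fit called 13.9%, 2.51%, 4.85% and 0.147% of all genes lower. Kif11, Kif18a, Kif18b and Kif2c kept their calls between the recipients under all 17 alternatives, and Kif11, Kif18a, Kif18b, Kif23 and Kif2c against wild type under all 18. In the knock-out, Kif2c, Kif1b, Kif3b and Kif24 lost theirs only with averaged GPI-positive arrays. The causes were not tested. No alternative was left out.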
